A study of Mus musculus with 4 samples.

Results

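The defensin cluster of mouse chromosome 8 was examined as 241 overlapping windows of 100 kb, with starts from 18000001 to 24000001 in GRCm38 at steps of 25 kb, out of 109033 windows in the whole table. Every window between those starts is a member, whether or not it holds a value. The stretch was selected on measured values: earlier results of these data had shown that it holds the single window of chromosome 8 past the genome-wide test between genotypes, and its windows without a value were known too. Values that compare the genotypes, and the counts of windows without a value, are therefore a description here. The profiles came from TrAEL-seq, a method that tags free 3′ ends of DNA and so records which strand carries them during replication. The embryonic stem cells were of the line 129S6/SvEvTac, grown on gelatin with serum and LIF. The series holds 2 libraries of wild-type cells (WT) and 2 labelled as lacking Snf2h (KO), from duplicate cultures of each genotype. How the knockout was made and whether it is a single clone are not given in the sources used here, and the level of Snf2h was not analysed here. Each window holds a polarity per library, a signed strand imbalance that runs from -50 to 50 and is given here in points. Which strand counts as positive is not stated in the sources used here. Pairs of values below are replicates 1 and 2 of a genotype, in that order.

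Defensins are short, cysteine-rich peptides that kill microbes by disrupting their membranes. In mice, alpha defensins (Defa genes) are made chiefly by Paneth cells of the small intestine, and beta defensins (Defb genes) by many epithelia, including that of the epididymis. Both families grew by repeated tandem duplication, so that neighbouring genes can be near copies of each other. Snf2h (gene Smarca5) is the ATPase of ISWI complexes, which slide and space nucleosomes. Along a chromosome, polarity changes sign where the prevailing direction of replication forks changes. Steep switches of one sense are known from initiation zones, from which forks diverge, and slower drifts of the other sense from places where forks meet.

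The annotation of GRCm38.p6 places 96 protein-coding genes, 54 pseudogenes and 29 lncRNA genes in these windows. The protein-coding genes include 29 alpha and 24 beta defensins, which span 18974914 to 21948622. A first group of 14 beta defensins, from Defb40 to Defb7, lies before 20 Mb. Defb33 stands alone at 20892667 to 20897723, the alpha defensins lie between 21025545 and 21735471, and the last 9 beta defensins, Defb1 to Defb13, follow them. The stretches below are shown because the alpha defensin array was the part richest in windows without a value, and because near-identical letters are a feature that its genes share and the selection did not use. Each is the 150 bases before a RefSeq transcription start (GRCm38.p6), 5′ to 3′ on the strand of the gene. Capitals mark letters that differ from the named partner, or are missing from it, in a global alignment of the promoters, so a stretch without capitals is identical to its partner. Defa36 (chr8:21427278-21427427, plus strand, partner Defa37), Defa37 (chr8:21565236-21565385, plus strand, partner Defa36) and Defa35 (chr8:21064888-21065037, plus strand, partner Defa36) are alpha defensins. Defb3 (chr8:19293211-19293360, plus strand) and Defb8 (chr8:19447607-19447756, minus strand) are the closest pair among the listed beta defensins, and each is the partner of the other.
Defa36: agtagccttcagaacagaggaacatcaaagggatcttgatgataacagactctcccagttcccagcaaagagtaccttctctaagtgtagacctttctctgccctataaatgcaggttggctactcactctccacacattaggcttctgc
Defa37: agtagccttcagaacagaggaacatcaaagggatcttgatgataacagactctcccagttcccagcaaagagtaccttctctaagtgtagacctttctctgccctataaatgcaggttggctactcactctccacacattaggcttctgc
Defa35: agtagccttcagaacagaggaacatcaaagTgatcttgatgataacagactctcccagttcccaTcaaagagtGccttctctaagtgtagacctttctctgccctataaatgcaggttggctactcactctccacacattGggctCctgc
Defb3: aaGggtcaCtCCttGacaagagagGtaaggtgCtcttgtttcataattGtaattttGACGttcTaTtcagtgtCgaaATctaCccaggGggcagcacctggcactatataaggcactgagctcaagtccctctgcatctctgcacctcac
Defb8: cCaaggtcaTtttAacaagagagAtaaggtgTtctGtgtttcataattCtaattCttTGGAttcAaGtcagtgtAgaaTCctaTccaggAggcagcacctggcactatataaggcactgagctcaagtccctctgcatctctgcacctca

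Promoters were listed for 16 alpha and 14 beta defensins. Of the alpha defensin promoters, 10 were identical over their whole length to that of another alpha defensin, in 5 pairs. The closest defensin relative of an alpha defensin promoter was a median of 100.0% identical (range 69.3% to 100.0%), against a median of 78.3% (range 47.3% to 89.0%) for beta defensins. Words of 50 letters that recur in the promoter of another gene, on either strand, were found in 14 of 16 alpha defensin promoters. They were found in 7 of 14 beta defensin promoters and in 8.27% of all 27025 promoters of the table. In the median alpha defensin promoter 100.0% of the words recurred, and in the median beta defensin promoter 1.59% did.

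**Figure D1:**
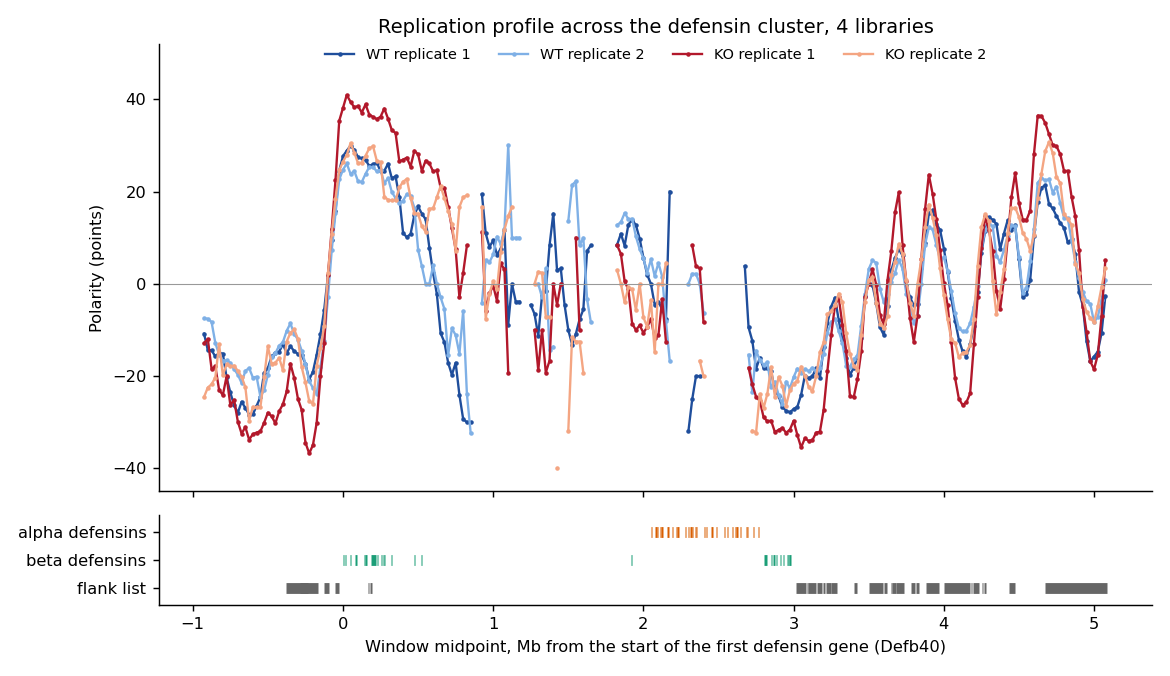
Polarity in points (vertical axis) of each window with a value, against the distance of its midpoint from the start of Defb40 in Mb, for the 4 libraries (lines break at windows without a value), with the listed genes below as bars. All libraries climbed steeply near the first beta defensins and then declined, and the profile was broken from past Defb7 to the end of the alpha defensins.

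The windows divided by what they cover. All 35 windows over beta defensin genes, all 35 of the proximal flank and all 83 of the distal flank had a value in all 4 libraries. Over alpha defensin genes, 21 of 32 windows (65.6%) lacked a value in at least 1 library, and 14 lacked one in all 4. Among the 56 windows between defensin genes, 25 lacked a value in at least 1 library and 10 in all 4. In total 46 of 241 windows (19.1%) lacked a value somewhere, so that 195 had a value in all libraries, and these include 50 windows that do not overlap. On the autosomes past their first 3 Mb, 1.55% of windows lacked a value in at least 1 library. Of the 54 such windows on chromosome 8 past its first 3 Mb, 46 were in this stretch. Spans of 241 windows with more of them were found on 7 other autosomes, with up to 168 on chromosome 14.

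A value was missing from 25 windows in WT replicate 1, 30 in WT replicate 2, 38 in KO replicate 1 and 39 in KO replicate 2. The KO libraries thus lacked more windows than either WT library, at 38.5 ± 0.707 against 27.5 ± 3.54 (SD, n = 2 each), a difference of 11.0. Both KO libraries also lacked more windows over the autosomes past the first 3 Mb (1.38% and 1.50%, against 1.10% and 1.14% in WT). Depth is unknown because read counts were not analysed here, and its part in this difference was not tested. All 4 libraries lacked the same 24 windows. Among the rest, 18 windows lacked a value in more KO than WT libraries and 3 in more WT than KO libraries. In 7 windows the value was missing from both KO libraries and neither WT library, and the reverse was found in 0.

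Windows without a value formed 6 runs. The first had starts from 19775001 to 19825001, and the next 3 had starts between 20050001 and 20725001; none of these 4 runs overlapped a defensin gene. The last 2 runs, with starts from 21100001 to 21275001 and from 21325001 to 21625001, lay on the alpha defensin array. They overlapped 10 and 14 protein-coding alpha defensins. Of the 13 windows of the longest run, 11 lacked a value in each of WT replicate 1, WT replicate 2 and KO replicate 1, and 12 in KO replicate 2.

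**Figure D2:**
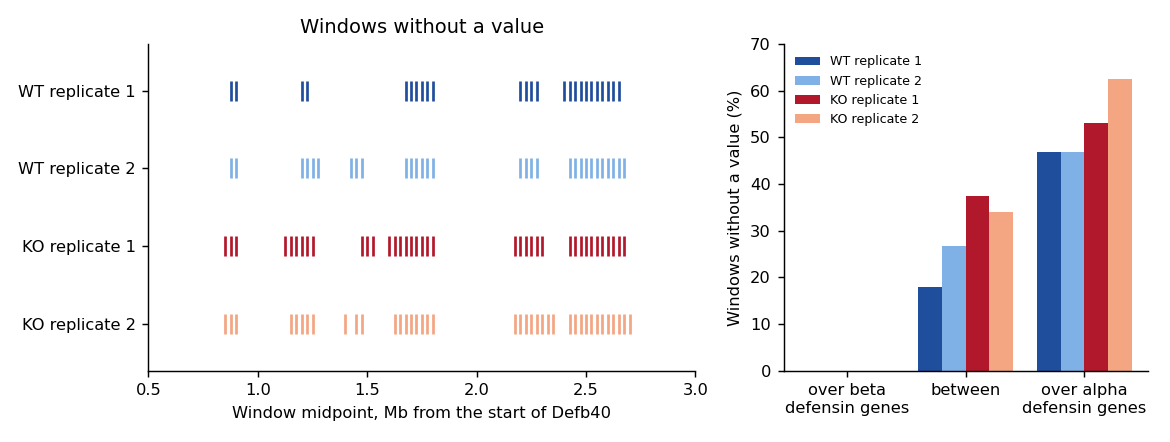
The windows without a value in each library (ticks), against the distance of the window midpoint from the start of Defb40 in Mb, and bars of the percent of windows without a value per library, by what the windows cover. No beta defensin window lacked a value, and among alpha defensin windows the share reached 62.5% in KO replicate 2.

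The genes were followed through the window centred nearest to each. All 24 beta defensins lay in a window with a value in all 4 libraries. Of the 29 alpha defensins 8 did, and 13, among them Defa22, Defa36, Defa37 and Defa26, lay in a window without a value in any library. Of the 16 alpha defensin promoters, 9 had no window over them with a value in all libraries and 4 had such values in all windows over them. Among the 10 promoters identical to another, 6 were of the first kind and 2 of the second. Closest identity was at least 90% for 8 of the 9 promoters of the first kind and for 6 of the 7 other alpha defensin promoters, while the beta defensins, at 89.0% or less, all had complete windows. Defa21 and Defa22 have identical promoters, and 4 of 4 windows over Defa21 but 1 of 4 over Defa22 had a value in all libraries. Defa35, 98.0% identical to Defa36 (the stretches printed above), had such a value in 4 of 4 windows, and Defa36 in 0 of 4. Defa28, whose promoter is 69.3% identical to its closest relative, also had one in 0 of 4. The reference is the C57BL/6J assembly and the cells are of another strain; the part of strain differences, copy number or the mapping of reads to repeated sequence was not tested.

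**Figure D3:**
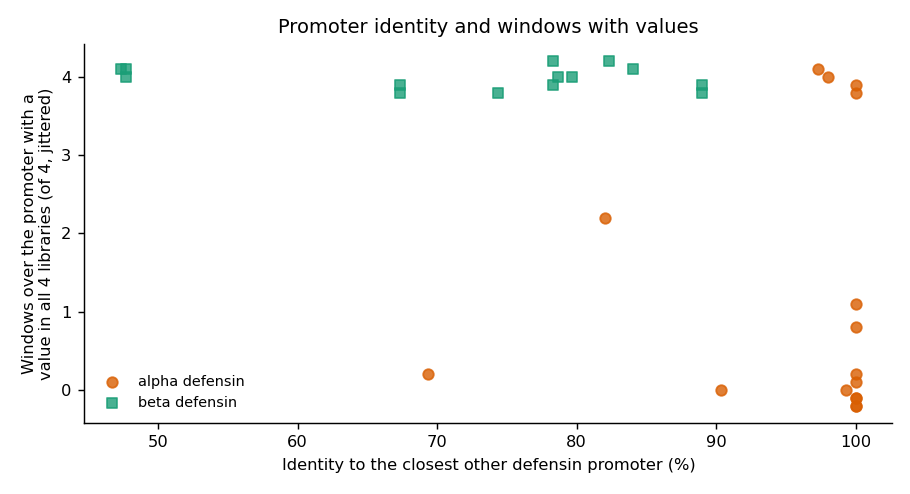
Each point is a defensin promoter: horizontal axis, percent identity to the closest other defensin promoter; vertical axis, how many of the 4 windows over it had a value in all 4 libraries, with points shifted slightly so that they can be told apart. All 14 beta defensins sit at 4, and the alpha defensins spread from 0 to 4 with 10 of 16 at 100.0% identity.

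The main feature shared by all libraries was a steep climb into the first beta defensins. In the running mean of 5 windows it ran over 275 kb, from 18750000 to 19025000. That interval holds part of Mcph1, a regulator of chromosome condensation mutated in primary microcephaly, Agpat5, which makes phosphatidic acid, Xkr5 and Defb37. The height of the climb was 46.2 and 44.1 points (WT) against 71.8 and 49.6 (KO). KO replicate 1 stood apart and the other libraries lay close together. The climb of the mean of all libraries, 52.9 points, was larger than 95.2% of 2455 rising segments called in the same way on the autosomes. Polarity at Agpat5, on the climb, ranged from -2.93 to 2.41 points over the libraries. At Angpt2, which encodes a ligand of the vascular receptor Tie2 and lies within Mcph1, it was -17.3 points in each WT library, -34.4 in KO replicate 1 and -21.35 in KO replicate 2.

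The first beta defensins lay on a plateau of high polarity. The windows from 19000001, with Defb38 and Defb39, and from 19100001, with Defb14, Defb12, Defb34 and Spag11a among others, had the highest means of the 50 windows that do not overlap. In the first of these, polarity was 29.1 and 24.45 points (WT) against 38.3 and 28.5 (KO), and in the second 25.6 and 25.3 (WT) against 36.7 and 29.4 (KO). KO replicate 1 was the highest library in both windows, whereas KO replicate 2 lay below WT replicate 1 in the first and above both WT libraries in the second. The differences of 6.625 and 7.57 points had limma adjusted p-values of 0.5845 and 0.515. With standardised libraries they were 0.284 and 1.43 points, and without KO replicate 1 they were 1.715 and 3.91 points. Without KO replicate 2 the first had a limma adjusted p of 0.0440. Spag11a, like its neighbour Spag11b, encodes a sperm-associated peptide related to beta defensins. Polarity was above 0 in all libraries at each of the 14 beta defensins of this group, and was lower towards the last of them. At Defb8 it was 14.9 and 16.5 points (WT) against 28.9 and 15.35 (KO). At Defb7 it was 15.2 and 3.81 points (WT) against 24.5 and 12.5 (KO). The genotypes overlapped at both genes.

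Past Defb7 the genotypes parted. In the window from 19600001 to 19700000, polarity was -12.6 points in WT replicate 1, -5.42 in WT replicate 2, 20.8 in KO replicate 1 and 18.6 in KO replicate 2. WT libraries were on the negative side and KO libraries on the positive side. The means were -9.03 ± 5.10 and 19.7 ± 1.60 points (SD, n = 2 each), and KO minus WT was 28.7 points (SE 4.64) with a limma adjusted p of 0.0118. The fit gave equal weight to all windows, and the number of reads behind this window is unknown. This window was 1 of 50 windows that do not overlap to pass, against 13 of 23672 autosomal windows (0.0549%). Since the stretch was chosen because of this window, nothing is read from that count. RefSeq lists no protein-coding gene in the window, which holds part of the lncRNA gene Gm35998 and the pseudogenes Gm29789 and Gm6483. The limma adjusted p was 0.779 without WT replicate 1, with a difference of 25.1 points, and 0.389 on an atanh scale, and over 9 alternatives it ranged from 9.64e-09 to 0.779. Without WT replicate 1, 0 of the 50 windows passed, against 8 of 23672 autosomal windows (0.0338%). Without KO replicate 1, 5 passed, against 1371 on the autosomes (5.79%), and without KO replicate 2, 23 passed, against 4790 (20.2%). The window from 19700001, with 4930467E23Rik, had the next largest positive difference among windows that do not overlap. Polarity there was -24.1 and -15.15 points (WT) against -2.94 and 16.7 (KO). Its difference of 26.5 points had a limma adjusted p of 0.0737. With all libraries kept, the alternatives gave limma adjusted p-values from 2.46e-05 with the replicate block to 0.389 on an atanh scale. The difference was 36.3 points without KO replicate 1 and 16.7 points without KO replicate 2.

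The windows around it had the same order. Each KO library lay above each WT library in 6 of 6 windows that overlap it, and in an unbroken row of 11 windows with starts from 19500001 to 19750001; on the autosomes this order was found in 22.2% of windows. The 6 share bases with the window on which the stretch was chosen. In that row the differences ranged from 17.2 to 40.7 points. Averaged over the row, polarity was -13.9 and -7.78 points (WT) against 14.6 and 16.5 (KO), which is 26.4 points higher in KO. When overlapping windows were tested, 5 of the 195 complete members passed, with starts at 19575001, 19600001, 19625001, 19650001 and 19750001, against 72 of 94694 (0.076%). These windows share bases and are not independent of each other. In the window from 19750001, which holds the end of the protein-coding gene 4930467E23Rik, polarity was -30.0 and -23.9 points (WT) against 8.33 and 19.2 (KO). Its difference of 40.7 points was exceeded in 1 of 94694 autosomal windows. The window borders the first run without values, and at 19775001 the WT libraries had -30.0 and -32.35 points while both KO libraries had no value. Read counts were not analysed here, so the number of reads behind its polarity is unknown. Within 100 kb of windows without a value, Pearson's r of replicates was 0.539 (WT) and 0.597 (KO), against 0.962 and 0.971 in the other complete windows.

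The decline was shared and its depth was not. Over the 19 windows with starts from 19300001 to 19750001, polarity was below 0 in 9 windows in WT replicate 1 and 8 in WT replicate 2. It was below 0 in 1 window in KO replicate 1 and in 0 in KO replicate 2. The first window at or below 0 started at 19550001 in WT replicate 1, at 19475001 in WT replicate 2 and at 19700001 in KO replicate 1. The lowest polarity in KO replicate 2 was 7.14 points. Over the falling segment called from 19025000 to 19750000, polarity changed by -52.65 and -37.4 points (WT) against -33.6 and -13.0 (KO). The change was larger in each WT library than in either KO library.

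**Figure D4:**
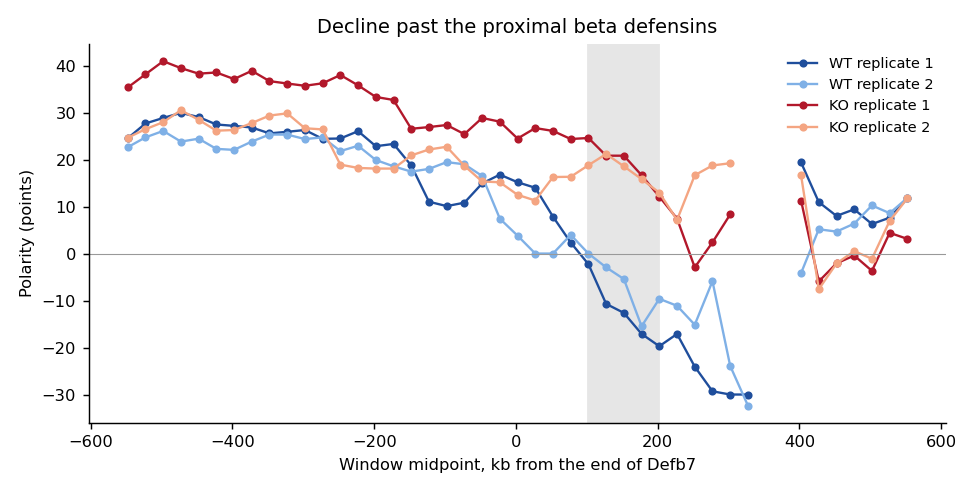
Polarity in points of the 4 libraries against the distance of the window midpoint from the end of Defb7 in kb; the grey band is the window from 19600001 and gaps are windows without a value. Before the gap WT replicate 1 reached -30.0 and WT replicate 2 -23.9 among complete windows, while the KO libraries stayed above 0 on the decline in all windows but 1 of KO replicate 1.

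Between the runs without values, short islands of windows remained. In 5 windows from 19875001 to 19975001 the order of the genotypes was opposite to that before the gap. Mean polarity there was 8.46 and 7.01 points (WT) against -1.54 and -0.666 (KO). The row was chosen after its values were seen, and both KO libraries lay below both WT libraries in 22.5% of autosomal windows. At 19850001, the first window of this island, the genotypes overlapped, with 19.4 and -4.17 points (WT) against 11.3 and 16.7 (KO). In other windows the libraries of a genotype differed widely from each other. At 20025001, polarity was -8.82 and 30.0 points (WT) against -19.2 and 14.7 (KO). In the 4 complete windows from 20225001 to 20300001, replicates were apart by up to 22.6 points in WT and 21.4 in KO. Over all 31 complete windows within 100 kb of a window without a value, the median gap of replicates was 5.99 points for WT and 6.52 for KO. In the other 164 it was 2.96 for WT and 6.80 for KO. Pearson's r of the WT replicates was 0.539 over the 31 windows and 0.962 over the 164, and that of the KO replicates was 0.597 and 0.971. These are descriptions over overlapping windows of the same libraries.

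Some adjacent windows among the gaps held identical values. From the first to the last window without a value, 2 of 44 adjacent pairs of windows in WT replicate 1 held the same value, as did 3 of 38 in WT replicate 2. In KO replicate 1 it was 0 of 31 and in KO replicate 2 it was 3 of 30. In the rest of the stretch it was 0, 1, 1 and 2 of 164 pairs in the same order of libraries. Over the autosomes 0.179% to 0.513% of pairs were identical.

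The longest island held Defb33 and the first alpha defensins. Over 11 windows with starts from 20750001 to 21000001, each KO library lay below each WT library, with differences from -4.98 to -19.3 points. This order was found in 22.5% of autosomal windows, and the row was chosen after its values were seen. Mean polarity was 7.27 and 9.31 points (WT) against -4.81 and -3.96 (KO), and KO minus WT was -12.7 points. At Defb33, polarity was 13.9 and 14.1 points (WT) against -8.65 and -1.16 (KO). The windows from 20800001 and 20900001, with the most negative differences among windows that do not overlap (-13.55 and -13.2 points), had limma adjusted p-values of 0.260 and 0.275. With all libraries kept, the alternatives gave limma adjusted p-values of 0.0678 to 0.407 and 0.0784 to 0.411. Without single libraries the differences ranged from -17.1 to -10.0 points and from -17.7 to -8.675 points. At Defa21, the first alpha defensin, polarity was 0.0 and 5.28 points (WT) against -7.58 and -3.52 (KO). At Defa23 it was -4.55 and 1.69 points (WT) against -11.8 and -14.9 (KO). At Defa35, Defa25, Defa38 and Defa30, which follow, the genotypes overlapped.

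The second group of beta defensins, past the alpha array, lay in a trough. Polarity was below 0 in all libraries at each of its 9 genes, the opposite of the first group. At Defa24, the last alpha defensin, it was -18.4 and -14.5 points (WT) against -24.5 and -32.3 (KO). At Defb1, which is expressed in many epithelia, it was -18.2 and -17.5 points (WT) against -28.9 and -26.9 (KO). The KO libraries lay lower at both genes, without overlap. At Defb11 the genotypes overlapped, and polarity was -26.7 and -26.1 points (WT) against -31.2 and -22.1 (KO). The window from 21900001, with Atp7b, Fam90a1a, Ccdc70 and Defb15 among others, had 1 of the 2 lowest means of the windows that do not overlap. Polarity there was -27.8 and -22.6 points (WT) against -31.6 and -23.1 (KO). The other was the window from 18300001, which holds no protein-coding gene, with -28.3 and -18.25 points (WT) against -33.8 and -29.6 (KO). A falling segment from 17975000 to 18375000 led into it, with changes of -17.6 and -16.6 points (WT) against -20.7 and -22.2 (KO).

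At 6 of the 24 beta defensins each KO library was above each WT library, and at 4 it was below. Of the 8 alpha defensins with complete values this held for 0 and 3. With each library rescaled to the same SD, KO was above at 2 and below at 0 of the first 14 beta defensins. It was above at 4 and below at 1 of the last 9, and below at Defb33. At the 8 alpha defensins it was above at 0 and below at 2. Over all autosomal windows on that scale, KO was above in 22.6% and below in 22.5%. Over all 195 complete windows as deposited, the genotypes did not overlap in 50 with KO above (25.6%) and 55 with KO below (28.2%). On the autosomes this held for 22.2% and 22.5% of 94694 windows, and nothing is read from the comparison because the stretch was chosen on this contrast. The median difference was 6.69 points over the first 14 beta defensins, -3.14 points over the last 9 and -7.05 points over those 8 alpha defensins, against -0.0662 over all autosomal windows. After rescaling, the medians were 0.471, 2.15 and -5.08 points, so that the sign over the last 9 beta defensins turned. At Defb33 the difference was -18.9 points as deposited and -19.75 points after rescaling. Neighbouring genes share windows, so these counts are not of independent genes.

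The distal flank carried a series of further swings. Polarity climbed by 18.6 and 13.1 points (WT) against 22.5 and 18.6 (KO) from 21900000 to 22250000. This interval holds Atp7b, the copper transporter mutated in Wilson disease, the kinase genes Nek5 and Nek3, and Thsd1. A climb from 22375000 to 22500000 lay over Slc25a15, the mitochondrial ornithine carrier, and part of the phosphate transporter gene Slc20a2. Its height was 13.1 and 17.2 points (WT) against 18.4 and 11.8 (KO). From 22775000 to 22900000, over part of Plat, which encodes tissue plasminogen activator, Ap3m2 and part of Kat6a, a histone acetyltransferase gene, it was 14.7 and 13.6 points (WT) against 20.3 and 12.5 (KO). KO replicate 1 had the highest value of all 3 climbs, while KO replicate 2 did not exceed the higher WT library at this precision.

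From 22900000 to 23100000, through Kat6a and Ank1, which encodes the erythrocyte ankyrin, polarity changed by -25.7 and -18.25 points (WT) against -40.35 and -25.85 (KO). It then climbed by 24.6 and 19.2 points (WT) against 32.2 and 21.3 (KO) up to 23275000, over Ank1, Gpat4, Golga7 and Gins4, the last a subunit of the replicative helicase. The last 3 segments lay before, over and past the end of Zmat4, a zinc finger gene at 23647326 to 24063117. The climb from 23525000 to 23650000, nearly all of it before the gene, was 16.4 and 18.0 points (WT) against 16.2 and 15.4 (KO). The change from 23650000 to 23975000, within Zmat4, was -32.8 and -27.4 points (WT) against -47.7 and -31.5 (KO). In the mean of all libraries this was -34.8 points, close to the -34.2 points of the fall past the first beta defensins. The last climb ran to 24125000, past the ends of the gene and of the stretch. In it KO replicate 2 stood apart with 3.46 points, against 22.2 in KO replicate 1 and 22.95 and 16.3 in WT.

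Among the 29 listed flank genes, polarity was above 0 in all libraries at 11 and below 0 in all at 14. Each KO library was above each WT library at 7 (24.1%) and below at 6 (20.7%), near the 22.2% and 22.5% of all autosomal windows. After each library was rescaled to the same SD, these counts were 1 and 6. At Polb, the polymerase of base excision repair, polarity was 5.61 and 2.39 points (WT) against 15.5 and 4.84 (KO). At Ikbkb, a kinase that activates NF-kappa-B, it was 7.51 and 5.23 points (WT) against 19.8 and 8.66 (KO). At Ank1 it was -12.1 and -9.68 points (WT) against -24.9 and -15.9 (KO). The genotypes overlapped at Polb but not at Ikbkb or Ank1. In the 4 windows from 23250001 to 23325001, KO libraries had lower mean polarity (0.352 and -1.17 points) than WT (11.3 and 7.67). In the 6 windows from 23375001 to 23500001 the order was the opposite, at 17.3 and 12.6 points in KO against 4.24 and 5.515 in WT. The gene of the secreted Wnt antagonist Sfrp1, at 23411383 to 23449632, lies under windows of both rows.

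The amplitude of the profile was larger in KO replicate 1 than in the other libraries, here and on all autosomes. The SD of polarity over the 195 complete windows was 15.9 and 14.5 points (WT) against 22.5 and 16.5 (KO). Over all autosomal windows it was 14.6 and 12.8 points (WT) against 19.4 and 14.5 (KO). The genotype means of this SD were 15.2 ± 0.989 and 19.5 ± 4.30 points (SD, n = 2 each), and their difference of 4.32 points compares with 3.25 points on the autosomes. It was 1.28 points without KO replicate 1 and 7.36 points without KO replicate 2. Each library was therefore also rescaled to the same autosomal SD, an alternative added for the counts of windows after seeing the data. At the first climb, KO exceeded WT by 15.55 points as deposited and by 3.92 points after rescaling. The deposited difference was 4.47 points without KO replicate 1 and 26.6 points without KO replicate 2. On the plateau from 18850001 to 19275001, KO lay above WT without overlap in 9 of 18 windows as deposited and in 1 of 18 after rescaling. The 11 windows from 19500001 to 19750001 were all still apart, with a mean difference of 26.5 points. The same held for the 11 windows from 20750001 to 21000001 (-13.4 points) and the 4 windows from 23250001 (-11.0 points). Rescaling cannot join libraries that lie on opposite sides of the autosomal mean, as they do in many windows of these rows. These rows were also chosen for being apart, so nothing is read from their staying apart. Other rows lost windows: KO lay below in 15 of 35 windows of the proximal flank as deposited and in 7 after rescaling. From 23375001 to 23725001, KO lay above in 13 of 15 windows as deposited and in 7 after rescaling. Over all complete windows after rescaling, KO lay above in 40 and below in 43, against 22.6% and 22.5% of autosomal windows.

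**Figure D5:**
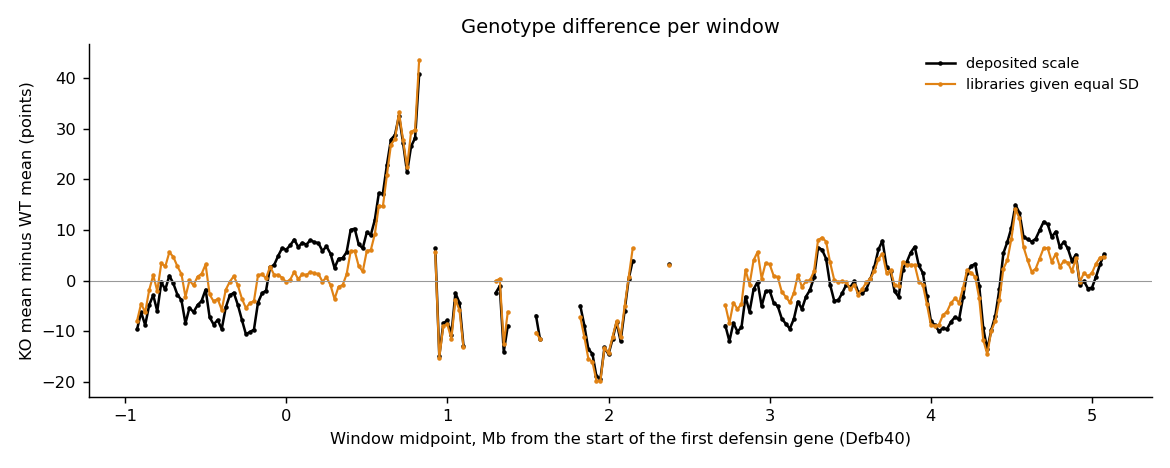
KO mean minus WT mean of polarity, in points, for each window with a value in all 4 libraries, against the distance of the window midpoint from the start of Defb40 in Mb, as deposited and after each library was given the same SD. The highest difference, 40.7 points as deposited, and the dip to -19.3 points near Defb33 were present on both scales.

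Beta defensin genes also lie on other autosomes, with 18 protein-coding genes and 21 windows over them on chromosomes 1, 2 and 14. All 21 windows had a value in all 4 libraries, as had the 35 on chromosome 8. Mean polarity over these windows on chromosome 1 was 10.8 and 9.004 points (WT) against 18.2 and 6.71 (KO). On chromosome 2 it was 2.97 and -0.418 points (WT) against 2.51 and -0.1355 (KO), with single windows from -35.6 to 38.1. On chromosome 14 it was 0.783 and -0.212 points (WT) against -19.2 and -8.80 (KO). The genotypes overlapped on chromosomes 1 and 2 and not on chromosome 14.

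Mean polarity over all complete windows of the chromosome 8 stretch was -2.40 and -0.906 points (WT) against -2.02 and -0.956 (KO). The difference of 0.168 points was below the pooled replicate SD of 0.917 points. At the limits of the stretch, the window from 18000001 had -10.8 and -7.47 points (WT) against -12.9 and -24.5 (KO), and its outer neighbour from 17975001 had -8.90 and -5.17 (WT) against -15.75 and -6.19 (KO). The window from 24000001 had -2.66 and 0.838 points (WT) against 5.11 and 3.47 (KO), and its outer neighbour from 24025001 had 5.58 and 8.89 (WT) against 11.0 and 2.11 (KO).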

How the data were processed

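TrAEL-seq was performed on 2 WT and 2 KO libraries. The duplicates are cultures of one line. The p-values rest on the spread between their libraries, which limma draws toward the spread common to all windows. They therefore do not measure the spread between cultures at a single window alone. Reads of each library had been mapped to GRCm38 plus an rRNA sequence and deduplicated, per the file headers, and the submitters' processing notes name Trim Galore 0.6.5 and Bowtie2 2.4.1. The deposited score is a signed strand imbalance per window; the program behind it, its sign convention, any minimum of reads and the depth are not given in the sources used here. For WT replicate 2 the label and the column name give different indexes, and the column was matched by its sample name.

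Windows were tested with limma 3.58.1 (R 4.3.3; lmFit and eBayes) on 23672 full-length autosomal windows spaced 100 kb with a value in all libraries, with Benjamini-Hochberg adjustment over all of them and a threshold of 0.05; the script was tested on simulated data. No other test was made. Segments joined successive extrema of a running mean of 5 windows that differed by at least 1 SD. Gene intervals and promoters are from RefSeq tables of GRCm38.p6. A window was assigned to a defensin family if it overlapped a protein-coding Defa or Defb gene, alpha taking precedence in 2 windows. Members, lists and rules were chosen with earlier results of these data known. Windows were named if past the threshold, or among the 2 highest means, 2 lowest means and 2 largest differences of each sign among windows that do not overlap, as were all segments, all runs without values, up to 4 genes of each and the listed genes. Other rows of windows were chosen after their values were seen. Alternatives covered scale, spacing, smoothing, design, variance prior and each library left out. Python 3.11.15, numpy 2.4.6, pandas 2.3.3 and matplotlib 3.10.9 were used.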

Additional observations from a re-analysis of the deposited data

How the results depend on the processing

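The number of windows of the stretch past the threshold, 1, was 5 over overlapping windows, 2 with standardised libraries (0.372% of all windows tested), 0 on an atanh scale (9 at an unadjusted p under 0.05 in limma; 0 of 23672 passed anywhere), 3 with limma's options trend and robust (1.28%), 2 with starts offset by 50 kb (0.101%) and 2 at an adjusted p under 0.1 (0.228%). With the replicate block it was 3 (2.66% of all windows tested), with the block and standardised libraries 5 (3.62%), and with the block over overlapping windows, added after seeing the data, 17 (2.67%). Without single libraries, where the lone library of a genotype is assumed to vary like the other genotype, it ranged from 0 to 23, and the share of all windows tested from 0.0296% to 20.2%. Deviations of same-numbered libraries correlated at 0.241 on the autosomes and -0.0314 in the stretch, and with only 2 pairs the numbers were not taken as a pairing.

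The excess of windows without a value in KO, 11.0, was 2.5 with windows spaced 100 kb and 3.5 over defensin genes, where fewer windows are counted. The difference in SD was 0.595 points with standardised libraries, which divides amplitude out. The difference in mean polarity was -0.195 points with windows spaced 100 kb, and -0.58 to 0.916 points without single libraries. The difference in rising segments, -1.5, was 0.5 for means of 3 windows, 0.0 for a minimum of 0.5 SD and 1.0 for one of 15 points. The replicate gap, 3.66 points larger in KO, was -0.1255 points with standardised libraries. These differences changed sign as well (KO minus WT, in points): the window from 21900001, at 3.49 with standardised libraries and -6.37 to 2.16 without single ones; the climb from 22375000, at 1.64 for means of 3 windows and -3.345 to 3.26 without single libraries; that from 22775000, at -1.22 with standardised libraries, -2.49 for means of 9 windows and -1.64 to 6.17 without single libraries; that from 23100000, at -0.431 with standardised libraries and -0.578 to 10.3 without single ones; and that from 23975000, at -16.15 to 2.55 without single libraries. For the sign changes, the cause was not tested.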
